A study of Mus musculus with 12 samples.

Results

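Mouse lung cells at postnatal day P10 were compared with the same sorted population at P3 and P7 as 1 contrast: the P10 stage mean against the mean of the P3 and P7 stage means. The members were chosen by their stage label, which gave 9 of the 12 libraries of the series: 3 at P3, 3 at P7 and 3 at P10. The other 3 libraries, from embryonic day E17.5, had no part in the contrast itself. They did enter the filter for low genes, the scaling of library sizes and the estimate of spread. All groups carried both transgenic reporters, Acta2-dsRed and Pdgfra-GFP, and no treatment is named for any of them. Whole lungs were dissociated, cells positive for both colours were sorted, and stranded RNA libraries were made with a low-input kit. The series title names Hippo pathway activity during the shaping of the alveoli, and this contrast addresses what sets P10 apart from the earlier postnatal days. Because each reporter follows the activity of its own promoter, the sort fixed which cells were measured at each stage, and the transcripts of Acta2 and Pdgfra are not independent of that gate. The labels do not state whether the 3 libraries of each stage are from different mice. The p-values then describe only how much these samples vary, and that variation may be technical.

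Cells with both reporters include the myofibroblasts that sit at the tips of the secondary crests, the ridges that divide the saccules of the newborn lung into alveoli. These cells multiply after birth, contract, and lay down elastin at the crest tips. When the walls have formed, they leave the cell cycle and lose contractile protein. Genes in these steps fall into known groups. Replication and mitosis genes are controlled by E2F factors and the DREAM complex, and imprinted growth genes are shut off in most tissues after birth. Other groups are matrix genes and genes under hormonal and circadian control.

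Summed estimated counts lay between 13328623 and 18643094 in the 9 libraries, and levels are given below as CPM, counts per 1000000 after scaling of the library sizes. P10 replicate 1 stood apart from the other P10 libraries. On the first principal component of the 9 libraries, which held 25% of the variance, it lay at 28.3, against -23.3 to 2.9 for P7 and 69.8 and 79.2 for P10 replicates 2 and 3. Markers of other lung cells were also lowest there. The 17 endothelial markers summed to 58.2 CPM in P10 replicate 1, to 157 and 150 CPM in replicates 2 and 3, and to between 85.0 and 187 CPM at P3 and P7. The 20 alveolar epithelial markers summed to 76.3 CPM in P10 replicate 1, 237 and 182 CPM in the other P10 libraries, and 148 to 292 CPM at P3 and P7. Not 1 marker of either list was at 0 in all 9 libraries. Summed levels of several lists are plotted per library further on, and counts are also given without P10 replicate 1 where they lead an account. In bulk RNA, fewer cells of a type and less RNA per cell cannot be told apart.

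By edgeR's quasi-likelihood test with Benjamini-Hochberg adjustment at 0.05, 1179 of 16827 tested genes (7.01%) were higher at P10 and 1279 (7.60%) were lower. Of these, 370 were higher and 446 lower by at least 2-fold. The median log2 fold change was 0.71 among the genes called higher, -0.71 among those called lower and 0.03 over all tested genes. All 3 P10 libraries lay above all 6 P3 and P7 libraries for 1581 genes (9.40%) and below them for 1681 (9.99%). Among the calls, 940 of 1179 higher genes and 1096 of 1279 lower genes were separated in this way. The contrast drew on 9 libraries, and the median standard error of a log2 fold change was 0.222, against 0.256 for P10 against P7. P10 against P7 alone called 613 genes (3.64%), P10 against P3 called 2912 (17.3%) and P7 against P3 called 1 (0.00594%). For that last comparison, 2399 genes had an unadjusted p under 0.05, and DESeq2 called 730. These comparisons share libraries with the contrast, so their calls are not separate evidence. Without P10 replicate 1 the contrast called 1058 genes higher and 1360 lower, without replicate 2 it called 341 and 434, and without replicate 3 it called 374 and 418.

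**Figure D1:**
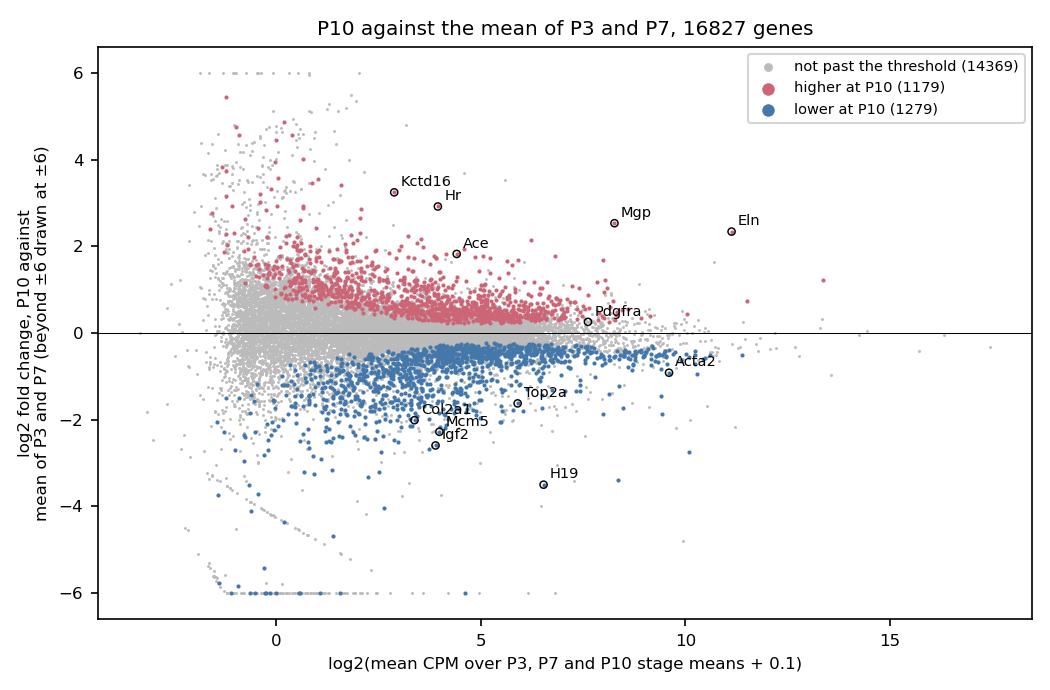
Each point is 1 of 16827 tested genes: the horizontal axis is the log2 mean level in CPM over the 3 postnatal stages and the vertical axis the log2 fold change of P10 against the mean of P3 and P7. The 1179 genes higher and 1279 lower at P10 are coloured, and Eln and Mgp combine high levels with fold changes of 2.34 and 2.53.

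Genes of DNA replication and mitosis were lower at P10 nearly as whole groups. Of 32 tested replication genes, 30 were lower and 0 were higher, with a median log2 fold change of -1.52. All 30 tested mitosis genes were lower, with a median of -1.49. Over all tested genes the share called lower was 7.60% and the median 0.03. To show what matches to known cell cycle elements look like in these promoters, the 150 bases before the RefSeq start site of 3 of these genes, which hold several matches, are printed from the GRCm38.p6 promoter table, 5′ to 3′ on the gene's strand. Capitals mark matches to 3 motifs: the E2F site (TTTCCCGC, TTTCGCGC, TTTGCCGC or TTTGGCGC), the cell cycle homology region CHR (TTTGAA), and the CCAAT box (CCAAT), each searched on both strands. Overlapping matches run together. The stretches are Mcm6 at chr1:128359706-128359855, minus strand, Mcm5 at chr8:75109359-75109508, plus strand, and Top2a at chr11:99024190-99024339, minus strand.
Mcm6: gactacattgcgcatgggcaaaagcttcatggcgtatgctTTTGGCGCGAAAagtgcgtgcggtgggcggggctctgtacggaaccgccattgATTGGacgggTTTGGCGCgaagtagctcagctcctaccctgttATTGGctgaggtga
Mcm5: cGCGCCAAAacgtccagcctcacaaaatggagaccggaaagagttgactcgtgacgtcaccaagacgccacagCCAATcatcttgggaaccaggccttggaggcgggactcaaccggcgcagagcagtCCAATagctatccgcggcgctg
Top2a: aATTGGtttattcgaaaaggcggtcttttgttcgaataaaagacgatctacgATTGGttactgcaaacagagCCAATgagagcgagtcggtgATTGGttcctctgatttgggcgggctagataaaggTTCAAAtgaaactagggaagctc

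The Mcm6 stretch holds 3 E2F matches, 2 of them overlapping, and 2 CCAAT matches. Mcm5 holds 1 E2F match and 2 CCAAT matches, and Top2a holds 1 CHR match and 4 CCAAT matches. Top2a holds no E2F match, and neither Mcm stretch holds a CHR match. Other genes of these groups lack such matches in the same stretch: Mcm2, Mcm3, Rrm2, Fen1 and Cdt1 hold no E2F match, and Cenpa and Kifc1 no CHR match. In windows of 300 bases, 250 before and 50 after the start, an E2F match stood in 11 of 30 promoters of replication genes (36.7%), in 1 of 25 promoters of mitosis genes (4%) and in 744 of 32851 promoters in the table (2.26%). A CHR match stood in 3 replication promoters (10%), 19 mitosis promoters (76%) and 17.9% of all promoters. A CCAAT match stood in 56.7%, 80% and 37.4% in the same order. The promoters belonged to 26 replication genes and 24 mitosis genes. A match of letters is a description and does not show that a factor binds there.

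Mcm5 and Mcm6 encode subunits of the helicase that unwinds DNA at the replication fork. Mcm5 stood at 23.7, 23.4 and 27.6 CPM in the P3 libraries, 17.4, 17.47 and 19.4 at P7, and 5.70, 2.91 and 4.47 at P10. The P10 libraries lay below all others (log2 fold change -2.28, SE 0.32, adjusted p = 0.00261). Mcm6 fell from between 28.4 and 39.0 CPM in the 6 earlier libraries to 13.2, 7.96 and 10.7 CPM (log2 fold change -1.67, SE 0.17, adjusted p = 0.000932). Mcm2 and Mcm3, of the same helicase, had log2 fold changes of -1.97 and -1.76. Rrm2, a subunit of the reductase that makes deoxynucleotides, was also lower (log2 fold change -1.97, SE 0.26, adjusted p = 0.00192). Its P10 libraries read 16.7, 7.25 and 8.03 CPM, under the 36.6 to 49.0 CPM of P3 and P7. The licensing factor Cdt1, its inhibitor Gmnn and the flap endonuclease Fen1 had log2 fold changes of -1.64, -2.14 and -1.47, each with an adjusted p of at most 0.00513. The replication genes that did not pass were Rfc5 and Tk1.

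Top2a, which untangles chromosomes before they separate, stood at 70.1, 75.9 and 83.0 CPM at P3 and 77.0, 77.4 and 78.9 at P7. At P10 it read 35.4, 16.4 and 23.2 CPM, so that the groups did not overlap and replicate 1 was the highest (log2 fold change -1.62, SE 0.23, adjusted p = 0.00261). Aurkb and Incenp, of the chromosomal passenger complex, had log2 fold changes of -1.92 and -1.58. The kinesin Kifc1 and the centromeric histone Cenpa had -1.99 and -1.35. P10 replicate 1 was the highest of the P10 libraries in all 30 mitosis genes, and their summed level was 374 CPM there, against 188 and 228 CPM in replicates 2 and 3 and 710 to 792 CPM at P3 and P7. Every mitosis gene was still separated between P10 and the earlier stages. The number of mitosis genes called was 30 without P10 replicate 1, 15 without replicate 2 and 14 without replicate 3. For replication genes it was 30, 25 and 25 in that order.

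Around the cell cycle core, 8 of 28 tested genes of G1 and checkpoint control were lower and 2 were higher. Over all tested genes 7.60% were lower and 7.01% higher. The lower genes included E2f7, an E2F repressor that is itself an E2F target (log2 fold change -1.85), and the kinase Cdk4 (-0.88). Cdkn1b encodes the inhibitor p27, which holds cells out of the cycle. It stood at 23.2 to 33.1 CPM in the earlier libraries and at 35.7, 40.1 and 42.9 CPM at P10, a small but separated rise (log2 fold change 0.55, SE 0.09, adjusted p = 0.00549). Cdkn1c, which encodes the inhibitor p57 and is imprinted, moved the other way. It read 31.4, 30.1 and 29.0 CPM at P10 against 38.9 to 54.0 CPM before (log2 fold change -0.64 with SE 0.08, adjusted p = 0.00167). The maintenance DNA methyltransferase Dnmt1 stood at 40.8, 39.5 and 40.5 CPM at P3, 35.6, 35.0 and 36.1 at P7, and 18.6, 16.1 and 17.0 at P10. Its libraries agreed closely within each stage, and its log2 fold change was -1.13 (SE 0.09, adjusted p = 0.000361). Its partner Uhrf1 had a log2 fold change of -1.82, while the Polycomb reader Cbx7 was higher by 2.22, from at most 1.01 CPM to between 1.78 and 3.17 CPM. The other 12 of 16 tested genes for DNA methylation and Polycomb proteins did not pass.

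The list of replication-dependent histone genes also held the variants H2afz and H2afx, and Slbp, which is not a histone gene. Log2 fold changes lay below 0 in 26 of its 26 tested genes, with a median of -1.49, and 7 passed. Those were Hist1h1c, Hist1h1e, Hist1h4a, Hist1h4d, H2afz, H2afx and Slbp. Without P10 replicate 1, 24 passed, but without replicate 2 it was 3 and without replicate 3 it was 2. H2afz, which encodes a histone variant and is a single gene outside the clusters, stood at 282, 294 and 367 CPM at P3, 216, 215 and 234 at P7, and 167, 103 and 122 at P10 (log2 fold change -1.02, SE 0.15, adjusted p = 0.00344). H2afx, whose protein is phosphorylated at DNA breaks, had a log2 fold change of -1.55. Clustered histone genes such as Hist1h4f have near-identical copies, and counts of single copies are uncertain. The same holds for the small nuclear RNA gene Rnu2-10, which was called lower (log2 fold change -2.74) and spread from 402 to 3152 CPM at P3 and P7.

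**Figure D2:**
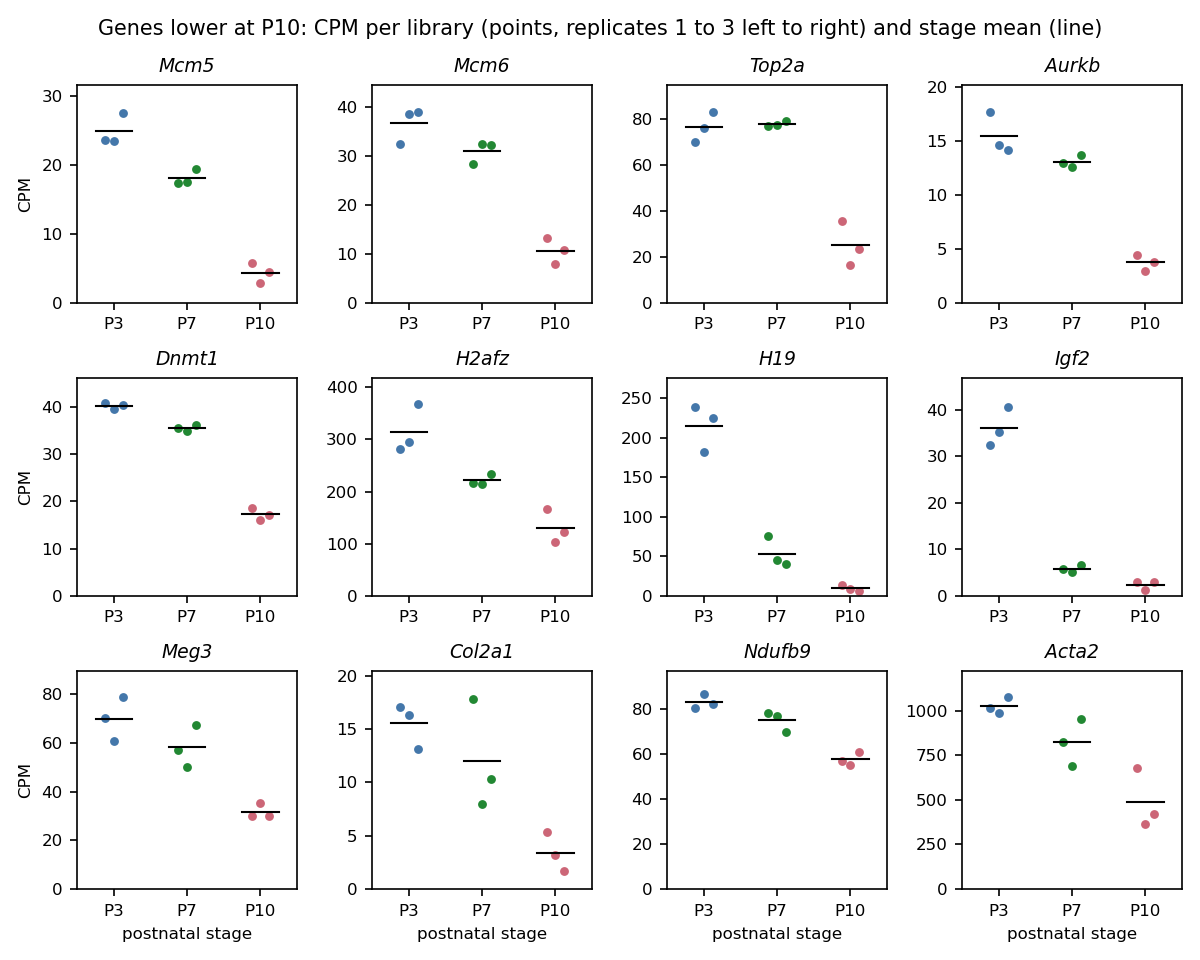
Points are the CPM of 12 genes in the 3 libraries of each postnatal stage and lines the stage means, with each vertical axis starting at 0. The 3 P10 libraries lie below all P3 and P7 libraries in every panel. P10 replicate 1 is the highest of the P10 libraries in all panels except Meg3 and Ndufb9.

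Several imprinted growth genes were lower at P10. Of 19 tested imprinted genes, 9 were lower and 1 was higher, with a median log2 fold change of -0.64. Without P10 replicate 1 the lower count was 11, and without replicate 2 or replicate 3 it was 4. H19, a non-coding RNA expressed from the maternal allele (chromosome 7, 142575529 to 142578143, minus strand, GRCm38), stood at 239, 182 and 225 CPM at P3, 75.4, 45.0 and 39.8 at P7, and 13.9, 8.41 and 6.15 at P10. No P10 library reached the lowest P7 library. The log2 fold change was -3.50 (SE 0.34, adjusted p = 0.000893), made up of -4.50 against P3 and -2.49 against P7, both past the threshold. Its neighbour Igf2, the paternally expressed fetal growth factor, stood at 32.4, 35.3 and 40.7 CPM at P3, 5.83, 5.07 and 6.63 at P7, and 3.03, 1.23 and 2.90 at P10. Most of that difference lay between P3 and P7: the log2 fold change was -3.91 against P3 and -1.28 against P7, and -2.59 (SE 0.26, adjusted p = 0.000932) in the contrast. Meg3, a maternally expressed RNA of another imprinted cluster, differed little between P3 and P7 (log2 fold change -0.27, adjusted p = 0.525) and was lower at P10, at 29.9, 35.5 and 30.2 CPM against 50.1 to 79.0 CPM (-1.002, SE 0.16, adjusted p = 0.00494).

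The RNA-binding proteins of the IGF2BP family, which are made mainly in fetal tissue and bind Igf2 mRNA, were lower too. Igf2bp3 stood at 5.25, 5.98 and 7.23 CPM at P3, 2.79, 1.35 and 1.79 at P7, and 0.475, 0.712 and 0.763 at P10 (log2 fold change -2.41, SE 0.26, adjusted p = 0.00112). Igf2bp1 and Igf2bp2 passed with -3.71 and -1.85, at levels of at most 0.891 CPM at P10, and overlapped with P7. The Igf2bp2 call ended in 7 of 19 alternatives, among them without P10 replicate 2 (adjusted p = 0.0935) or replicate 3 (0.121). That of Igf2bp1 ended in 1, limma-voom (adjusted p = 0.0536). In the IGF system, 4 of 16 tested genes were higher and 1, Igf2, was lower. Igfbp5, a binding protein held in the matrix, stood at 51.2 to 97.5 CPM at P3, 210 to 273 at P7, and 357, 468 and 499 at P10 (log2 fold change 1.69, SE 0.29, adjusted p = 0.00630). Igfbp7 had a log2 fold change of 1.19, and Pappa, a protease that cleaves IGF-binding proteins, 1.72. Igf1 itself read 231, 121 and 128 CPM at P10 against 123 to 223 CPM before, with no call (adjusted p = 0.878).

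Matrix genes held several of the largest rises at P10. The matrix lists ran from 1 of 21 members called higher among elastic fibre genes to 4 of 10 among small leucine-rich proteoglycans, against 7.01% of all tested genes. Eln, which encodes the elastin precursor (chromosome 5, 134702593 to 134747323, minus strand), stood at 634, 570 and 394 CPM at P3, 1189, 1857 and 1661 at P7, and 4236, 5016 and 4648 at P10. The stages did not overlap at any step. Its log2 fold change was 2.34 (SE 0.20, adjusted p = 0.000444), with 3.12 against P3 and 1.56 against P7. Among the 21 tested genes of the elastic fibre, 1 was called higher, Eln, and 1 was called lower, Fbn2, a fibrillin of early microfibrils. The median log2 fold change of the list was -0.13. Fbn2 read 39.4, 28.3 and 20.5 CPM at P10 against 49.9 to 56.1 CPM (log2 fold change -0.85 with SE 0.19, adjusted p = 0.0176), a call that ended without P10 replicate 2 (adjusted p = 0.0830) or replicate 3 (0.0776).

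Mgp, which encodes matrix Gla protein, an inhibitor of calcification (chromosome 6, 136872435 to 136875823, minus strand), followed another course. It stood at 147, 134 and 158 CPM at P3 and 49.7, 125 and 111 at P7, and then at 761, 686 and 604 at P10. The lowest P10 library was above every earlier library, and the difference passed (log2 fold change 2.53, SE 0.26, adjusted p = 0.000932). Of 21 tested matricellular and associated proteins, 5 were higher and 1 was lower. Tnxb, a tenascin that binds collagen fibrils, stood at 4.90 to 7.03 CPM at P3, 13.2 to 28.4 at P7, and 32.6, 49.3 and 50.6 at P10 (log2 fold change 1.94, SE 0.24, adjusted p = 0.00141). Vcan, the large proteoglycan of provisional matrix, was the lower member, at 72.1, 54.4 and 56.1 CPM against 80.4 to 110 CPM (log2 fold change -0.68 with SE 0.14, adjusted p = 0.0124). That call ended without P10 replicate 2 (adjusted p = 0.0724) or replicate 3 (0.0747).

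Among fibrillar and associated collagens, 3 of 18 tested genes were higher and 1, Col11a1, was lower. Col3a1, the chain of type III collagen in compliant tissue, stood at 2073, 2000 and 2130 CPM at P3, 2499, 2833 and 2715 at P7, and 3692, 4114 and 3983 at P10 (log2 fold change 0.74, SE 0.11, adjusted p = 0.00295). Col14a1, a collagen bound to fibril surfaces that also marks adventitial fibroblasts, had a log2 fold change of 1.70. Col1a1 and Col1a2 of type I collagen were not called, with log2 fold changes of 0.15 and 0.22. Col2a1, the cartilage collagen, which was not in that list, had a level of 7.95 to 17.8 CPM at P3 and P7 and 5.34, 3.17 and 1.68 CPM at P10 (log2 fold change -2.01, SE 0.36, adjusted p = 0.00686). The laminin chains Lama4 and Lama2 had log2 fold changes of 0.68 and 0.69, and Lama1, the chain of embryonic basement membranes, had -2.66. In the list of 21 basement membrane genes, 3 were higher and 2 lower, and the call of Lama1 ended without P10 replicate 2 (adjusted p = 0.0857) or replicate 3 (0.0899).

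Of 10 tested small leucine-rich proteoglycans and relatives, 4 were higher and 0 lower, with a median log2 fold change of 0.47. Ecm2 had the largest difference and stood at 14.3, 31.2 and 35.5 CPM at P10 against 4.98 to 11.9 CPM (log2 fold change 1.77 with SE 0.28, adjusted p = 0.00454). Bgn, Prelp and Lum were the other members called higher, and between 1 and 3 members were called when any 1 of the 9 libraries was left out, 1 without P10 replicate 2, P10 replicate 3 or P3 replicate 2. Secreted proteases of the ADAMTS family and their relatives were higher in 6 of the 21 tested genes for matrix proteases and inhibitors, with 0 lower. Adamts2, which trims the ends of procollagens, stood at 49.0 to 63.9 CPM at P3, 67.3, 81.8 and 90.0 at P7, and 119, 129 and 126 at P10 (log2 fold change 0.89, SE 0.12, adjusted p = 0.00231). Adamts1 and Adamts5, which cleave proteoglycans such as versican and aggrecan, had log2 fold changes of 1.22 and 1.57. Adamts1 showed the pattern of P10 replicate 1 lying lowest, at 259 CPM against 508 and 495 CPM. Between 5 and 7 members of the list passed when any 1 of the 9 libraries was left out.

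Genes outside the matrix lists also led the rise by fold change. Hr encodes a nuclear corepressor and histone demethylase that is best known from skin and is a target of thyroid hormone (chromosome 14, 70552212 to 70573548, plus strand). Its level was 2.59, 2.22 and 4.26 CPM at P3, 6.58, 8.45 and 7.10 at P7, and 33.6, 42.8 and 30.9 at P10. The larger part of the difference lay after P7, with log2 fold changes of 2.28 against P7, 3.56 against P3 and 2.92 (SE 0.21, adjusted p = 0.000361) in the contrast. Kctd16, an auxiliary subunit of GABA-B receptors, stood at 0.473 to 0.855 CPM at P3, 3.54, 6.87 and 4.16 at P7, and 15.6, 17.0 and 16.6 at P10 (log2 fold change 3.25, SE 0.30, adjusted p = 0.000675). Ace, the angiotensin-converting enzyme, read 43.6, 34.6 and 39.5 CPM at P10 against 6.84 to 21.8 CPM (log2 fold change 1.83 with SE 0.20, adjusted p = 0.00112). The extracellular superoxide dismutase Sod3 read 48.8, 58.2 and 53.9 CPM against 10.7 to 24.8 CPM (log2 fold change 1.75 with SE 0.18, adjusted p = 0.000932). Pcsk6, a proprotein convertase, Cemip, which takes part in hyaluronan breakdown, and Fmo2, a monooxygenase, had log2 fold changes of 2.24, 2.18 and 2.15. In Fmo2 the P10 libraries ran from 54.4 CPM in replicate 1 to 210 and 199 CPM, and the highest earlier library was at 50.4 CPM.

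**Figure D3:**
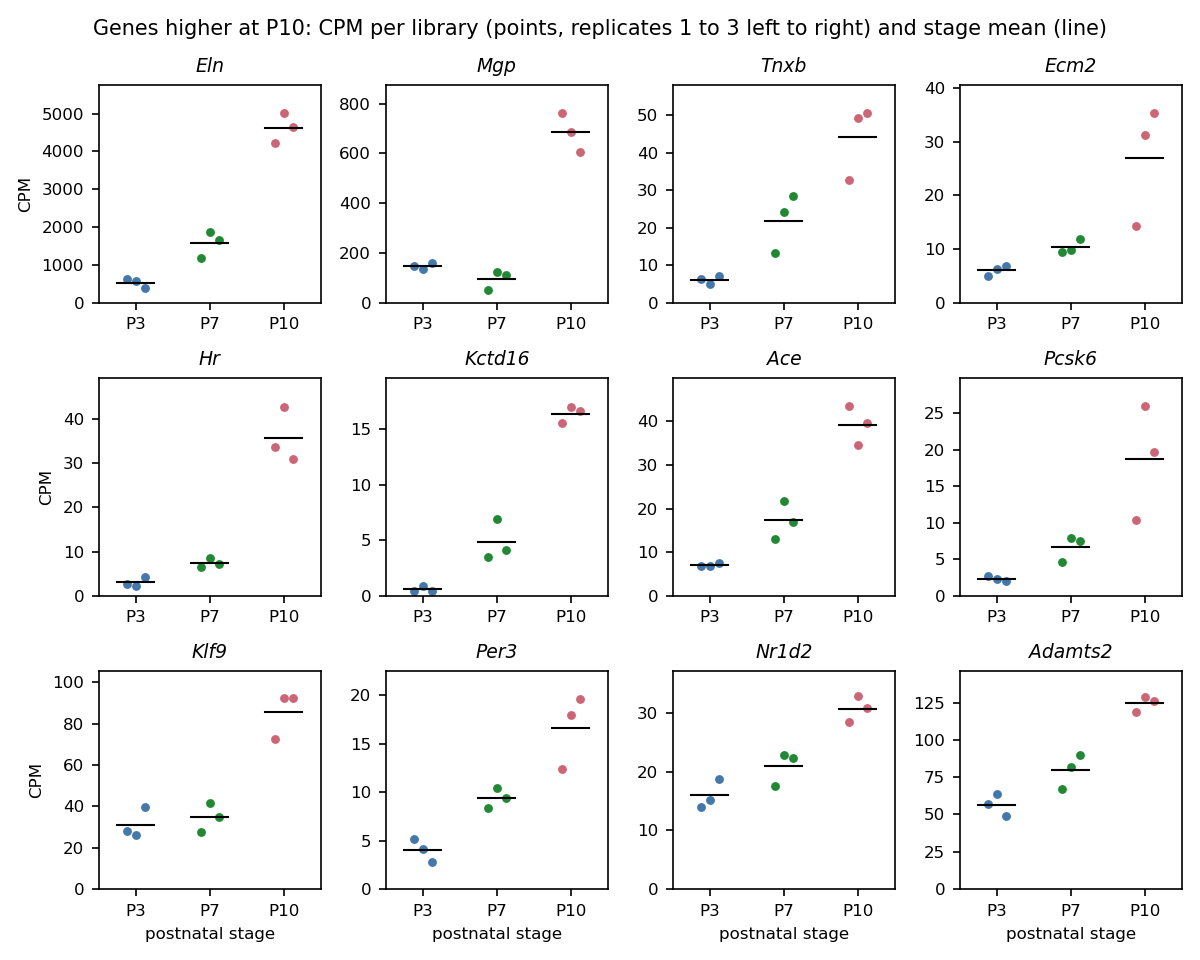
Points are the CPM of 12 genes in the 3 libraries of each postnatal stage and lines the stage means, with each vertical axis starting at 0. The P10 libraries lie above all P3 and P7 libraries in each panel, with the largest fold changes in Hr and Kctd16, and P10 replicate 1 is the lowest of the P10 libraries in 9 of the 12 panels.

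The contractile genes and the reporter genes themselves were less settled. Acta2, smooth muscle actin, stood at 1016, 984 and 1075 CPM at P3, 823, 691 and 952 at P7, and 676, 364 and 420 at P10. The groups did not overlap, but P10 replicate 1 lay near the lowest P7 library. The log2 fold change was -0.92 (SE 0.25, adjusted p = 0.0338), and it was -0.74 without P10 replicate 2 (adjusted p = 0.151), -0.81 without replicate 3 (0.148) and -1.26 without replicate 1 (0.011). The call also ended without any 1 of the P3 libraries and without P7 replicate 1 or replicate 3. Pdgfra, the platelet-derived growth factor receptor of these cells, read 178, 249 and 236 CPM at P10 against 164 to 218 CPM, with no call (log2 fold change 0.26, adjusted p = 0.304). Of 25 tested genes of the contractile apparatus, 7 were lower and 0 higher, with a median log2 fold change of -0.53. Without P10 replicate 1 the count of lower genes was 12, and without replicate 2 or replicate 3 it was 0. The members called were Acta2, the actin-binding proteins Cnn2, Tpm1, Tpm2 and Pdlim3, the light chain Myl9 and the integrin Itga8. P10 replicate 1 was the highest P10 library in 20 of the 25 genes, and their sum was 7486 CPM there against 5076 and 5302 CPM.

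Markers of secondary crest myofibroblasts, which these sorted cells are thought to hold, were present at all stages and summed to 6131 to 7818 CPM over the 9 libraries. Of 20 tested markers 0 were higher and 2 were lower, Acta2 and Nrep, with a median log2 fold change of 0.26. The lower count was 3 without P10 replicate 1 and 0 or 1 without any other library, and the Nrep call ended in 11 of 19 alternatives. Aspn, which encodes the matrix proteoglycan asporin, read 384, 391 and 466 CPM at P10 against 176 to 294 CPM before, with an adjusted p of 0.0537. Markers of alveolar fibroblasts and lipofibroblasts had a median log2 fold change of -0.71, which combined -1.67 against P3 with 0.08 against P7, and 2 of 19 passed. Itga8, 1 of the 2, read lower at each stage: 20 to 44.3 CPM at P3, 5.18, 8.68 and 12.2 at P7, and 2.79, 3.88 and 4.88 at P10 (log2 fold change -2.18, SE 0.64, adjusted p = 0.0497). The Itga8 call ended in 13 of 19 alternatives, among them each of the 9 fits with 1 library left out (adjusted p from 0.0527 to 0.159), and the count of the list was then 0 or 1. For the median of this list the contrast mainly reports the level at P3. Pericyte and vascular smooth muscle markers had 2 of 16 higher, Rgs5 and Pdgfrb, and 2 lower, Mcam and Higd1b. The marker counts stand beside 7.01% higher and 7.60% lower over all tested genes. Rgs5, a regulator of G-protein signalling, stood at 14.2 to 16.2 CPM at P3, 21.4 to 34.3 at P7, and 47.4, 72.6 and 84.4 at P10 (log2 fold change 1.72, SE 0.19, adjusted p = 0.00112). Pdgfrb, the receptor for platelet-derived growth factor B, had a log2 fold change of 1.01.

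The endothelial list had a median log2 fold change of 0.88, the highest of the lists with at least 10 tested genes, yet 1 of 17 members, Emcn, was called higher and 1, Ednrb, was called lower. With P10 replicate 1 left out, 8 members were called higher, Pecam1 among them (log2 fold change 1.68, adjusted p = 0.00535), and without replicate 2 or replicate 3 it was 0. The endothelial adhesion molecule Pecam1 read 1.72 CPM in P10 replicate 1 and 12.1 and 15.2 CPM in replicates 2 and 3, against 2.79 to 6.54 CPM at P3 and P7. P10 replicate 1 had the lowest level of the P10 libraries in 16 of the 17 endothelial markers, all 20 alveolar epithelial markers and all 5 airway markers. The part of these other cells in the differences between P10 libraries was not tested. Ednrb, an endothelin receptor, fell before P10, from 55.3, 56.3 and 88.8 CPM at P3 to 18.7, 10.8 and 11.1 at P7 and 6.06, 7.05 and 11.3 at P10, with a log2 fold change of -3.03 against P3 and -0.73 (adjusted p = 0.251) against P7.

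**Figure D4:**
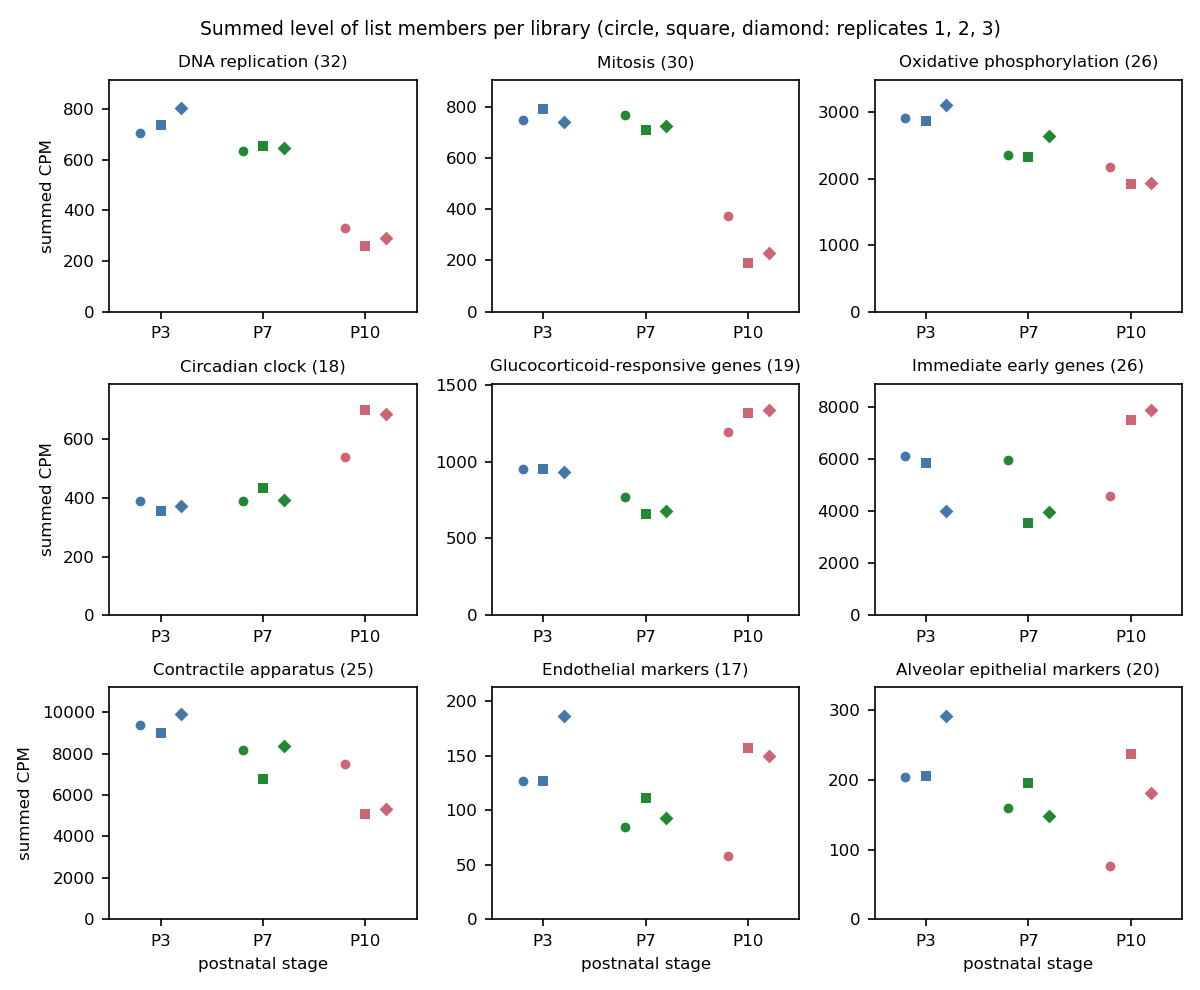
Each panel gives the summed CPM of a gene list in the 9 libraries, with the number of genes in brackets and shapes for the replicates. P10 replicate 1 (circle) stays below the P3 and P7 libraries for replication and mitosis genes and above them for clock genes, and lies lowest of all 9 libraries for endothelial and alveolar epithelial markers.

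The Hippo pathway restrains the transcriptional coactivators YAP and TAZ through the kinases LATS1 and LATS2, and YAP and TAZ act with TEAD factors on targets such as Ctgf and Cyr61. Of 31 tested pathway components, 4 were higher and 1 was lower, with a median log2 fold change of 0.15. Over all tested genes 7.01% were higher and 7.60% lower. All 5 changes were small. Amotl1, an angiomotin that binds YAP, stood at 51.0 to 57.0 CPM at P3, 73.0 to 79.4 at P7, and 86.2, 86.8 and 86.1 at P10 (log2 fold change 0.41, SE 0.08, adjusted p = 0.00759). The kinases Taok1 and Lats1 had log2 fold changes of 0.43 and 0.24. The Lats1 call (adjusted p = 0.0441) ended in 16 of 19 alternatives, among them each of the 9 fits with 1 library left out (adjusted p from 0.0564 to 0.193). Tead2 had -0.52 (SE 0.11, adjusted p = 0.0143), at 74.7, 70.2 and 61.0 CPM against 91.5 to 121 CPM, and did not pass without P10 replicate 2 (adjusted p = 0.0602) or replicate 3 (0.0857). The higher count was 2 or 3 whichever library was left out. Yap1 read 65.8, 54.0 and 54.3 CPM at P10 against 46.0 to 61.5 CPM and did not pass (log2 fold change 0.16, adjusted p = 0.248), nor did Wwtr1, which encodes TAZ (0.22, adjusted p = 0.442). With offsets that adjust for transcript length, 1 component was higher and 3 were lower, and the calls of Amotl1, Taok1 and Lats1 ended (adjusted p = 0.0697, 0.0691 and 0.193).

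Of 24 tested YAP and TAZ target genes, 2 were higher, F3 and Rbms3, and 1 was lower, Birc5, with a median log2 fold change of 0.06. These counts are close to the shares over all tested genes, 7.01% higher and 7.60% lower. Ctgf spread widely within stages, at 242, 192 and 381 CPM at P3, 296, 107 and 149 at P7, and 350, 211 and 188 at P10 (log2 fold change 0.16, SE 0.37, adjusted p = 0.819). Cyr61 read 546, 545 and 599 CPM at P10 within an earlier range of 323 to 964 CPM (0.08, SE 0.30, adjusted p = 0.892). Neither difference could be told from the spread between libraries. F3, which encodes tissue factor, read 9.74, 11.4 and 12.6 CPM at P10 against 2.59 to 5.40 CPM (log2 fold change 1.48 with SE 0.24, adjusted p = 0.00451). Birc5 encodes survivin, which also works in the chromosomal passenger complex, and its log2 fold change was -1.76. The Birc5 call ended without P10 replicate 2 (adjusted p = 0.0562) or replicate 3 (0.0614), and that of Rbms3 without any 1 of the P10 libraries. The Rbms3 call ended in 11 of 19 alternatives.

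Other signalling pathways are read against the 7.01% called higher and 7.60% called lower over all tested genes. In the TGF-beta list 3 of 23 genes were higher and 1 lower, and without P10 replicate 2 or replicate 3 the higher count was 1. The ligand Tgfb3 stood at 60.6 to 81.4 CPM at P3, 116, 117 and 126 at P7, and 131, 154 and 156 at P10 (log2 fold change 0.65, SE 0.13, adjusted p = 0.0108), a call that ended without P10 replicate 2 (adjusted p = 0.0571) or replicate 3 (0.0567). Tgfb2 did not pass (0.22, adjusted p = 0.465). Pmepa1, a feedback inhibitor induced by the pathway, had a log2 fold change of 0.73. In the BMP list 3 of 27 were higher, among them the ligand Bmp5, at 65.5, 78.7 and 76.0 CPM against 32.5 to 50.04 CPM (log2 fold change 0.87 with SE 0.12, adjusted p = 0.00260). In the Wnt list 7 of 37 genes were lower and 2 higher, and the lower count was 3 to 6 when 1 library was left out, 3 without P10 replicate 2 or replicate 3. Sfrp2, a secreted Wnt modulator, had a log2 fold change of -2.36, the ligand Wnt5b -1.35 and the nuclear effector Tcf7 -0.69. Tcf7 read 49.5, 54.9 and 54.1 CPM at P10, below the 76.2 to 91.4 CPM of the earlier libraries. In the FGF list the receptor Fgfr2 and the target Etv4 were lower, with log2 fold changes of -0.45 and -1.11, and Fgf7 was higher. The calls of Etv4, Fgfr2 and Fgf7 ended without P10 replicate 2, and those of Fgfr2 and Fgf7 without replicate 3. The Fgf7 call ended in 12 of 19 alternatives. Fgf18, a ligand made by myofibroblasts, read 148, 219 and 204 CPM against 71.5 to 159 CPM and did not pass (0.64, adjusted p = 0.159). Of the 15 tested Notch genes 0 passed by edgeR's test and 2 by DESeq2, 3 had an unadjusted p under 0.05, and the median log2 fold change was 0.21. In the Hedgehog list 1 of 13 passed, Foxl1 (-1.23). That call ended in 12 of 19 alternatives, among them each fit with 1 library left out except that without P10 replicate 1.

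Circadian clock genes were higher at P10 in 11 of 18 tested members and lower in 1, with a median log2 fold change of 0.72. Per3, a repressor of the clock, stood at 5.18, 4.10 and 2.77 CPM at P3, 8.37, 10.5 and 9.36 at P7, and 12.3, 17.99 and 19.6 at P10 (log2 fold change 1.44, SE 0.20, adjusted p = 0.00235). Nr1d2 and Rora encode nuclear receptors that repress and activate the clock gene Bmal1. Nr1d2 read 28.4, 32.8 and 30.8 CPM against 13.9 to 22.8 CPM (log2 fold change 0.75), and Rora read 86.1, 83.7 and 80.5 CPM against 33.7 to 55.8 CPM (0.94, SE 0.17, adjusted p = 0.00713). Dbp, an output factor of the clock, had a log2 fold change of 1.54, a call that ended without P10 replicate 2 (adjusted p = 0.0757) or replicate 3 (0.0601). For 6 of the 18 members all P10 libraries lay above all earlier libraries. The number called was 9 without P10 replicate 1 and 3 without replicate 2 or replicate 3. The labels used here give no time of day for any library, so stage and hour of collection cannot be told apart.

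Glucocorticoid-responsive genes moved in both directions. Of 19 tested, 6 were higher and 2 lower, with a median log2 fold change of 0.42. Klf9, a Krüppel-like factor induced by glucocorticoid and thyroid hormone, stood at 27.9, 26.0 and 39.8 CPM at P3, 27.7, 41.9 and 34.9 at P7, and 72.7, 92.7 and 92.5 at P10 (log2 fold change 1.38, SE 0.17, adjusted p = 0.00135). Cebpd, a CCAAT/enhancer-binding protein, read 337, 367 and 377 CPM against 86.5 to 216 CPM (log2 fold change 1.18 with SE 0.24, adjusted p = 0.0113), and did not pass without replicate 2 (adjusted p = 0.053) or replicate 3 (0.0541). Fkbp5, a chaperone that dampens the glucocorticoid receptor and is a standard target of it, was lower: 13.8, 11.7 and 19.2 CPM at P3, 7.77, 6.76 and 9.36 at P7, and 4.21, 2.91 and 3.25 at P10 (log2 fold change -1.65, SE 0.19, adjusted p = 0.00123). Hif3a, also in the list, had -2.81 at levels of at most 1.98 CPM. Without P10 replicate 1 the higher count was 7, without replicate 2 it was 2 and without replicate 3 it was 1.

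Immediate early genes, which rise within minutes of stress or dissociation, had 5 of 26 higher and 0 lower, with a median of 0.45. Their sum was 4585 CPM in P10 replicate 1 and 7517 and 7876 CPM in replicates 2 and 3, against 3554 to 6105 CPM at P3 and P7. Fosl2, a partner of JUN, read 163, 177 and 160 CPM against 72.4 to 126 CPM (log2 fold change 0.75 with SE 0.14, adjusted p = 0.00882). Without P10 replicate 2, 0 members were called and without replicate 3, 1 was. Several clock and glucocorticoid genes also respond to handling of cells, and the part of tissue handling in their differences was not tested.

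Interferon response genes were higher in 6 of 19 tested and lower in 0, with a median log2 fold change of 0.42. The share called higher over all tested genes was 7.01%. Gbp2, an interferon-induced GTPase, read 5.40, 4.21 and 6.61 CPM against 1.08 to 3.44 CPM (log2 fold change 1.42 with SE 0.24, adjusted p = 0.00583). Of 14 tested genes for MHC and antigen presentation, 3 were higher. B2m, the light chain shared by class I molecules, read 172, 139 and 153 CPM against 108 to 124 CPM (log2 fold change 0.42 with SE 0.09, adjusted p = 0.0128), a call that ended without P10 replicate 1 (adjusted p = 0.0545) or replicate 3 (0.0535). Summed immune markers stayed between 25.5 and 38.7 CPM in all 9 libraries. Of 12 tested immune markers, 10 had log2 fold changes above 0 and 2 below, with a median of 0.60. Ptprc was the 1 member called, higher at P10 (adjusted p = 0.03), and that call ended in 10 of 18 alternatives. The number of interferon genes called higher was 2 to 4 when any 1 of the 9 libraries was left out. It was 3 without P10 replicate 1, 2 without replicate 2 and 3 without replicate 3.

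Nuclear-encoded genes of oxidative phosphorylation were lower in 17 of 26 tested and higher in 0, with a median log2 fold change of -0.43. Ndufb9, a subunit of complex I, stood at 80.3, 86.7 and 82.4 CPM at P3, 78.5, 77.0 and 70.0 at P7, and 57.0, 55.3 and 61.1 at P10 (log2 fold change -0.45, SE 0.07, adjusted p = 0.00371). Ndufb8 and the ATP synthase subunit Atp5o had log2 fold changes of -0.46 and -0.64. The number called was 19 without P10 replicate 1, 5 without replicate 2 and 6 without replicate 3. These genes have short transcripts, with a median of 1698 nt for the longest transcript of each gene, and fold change was related to length over all genes. With genes split into 5 equal groups by length, the median log2 fold change went from -0.07 in the shortest group to 0.13 in the longest. The share called higher rose from 2.41% to 14.1%. The share called lower followed no steady course, at 7.06%, 10.8%, 8.99%, 6.57% and 5.92% from shortest to longest. With offsets adjusted for length, 9 of the 26 oxidative phosphorylation genes were lower, against 30 replication genes and 29 mitosis genes lower and 10 clock genes higher. Over all 15799 genes tested in that fit, 1049 were lower and 906 higher.

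**Figure D5:**
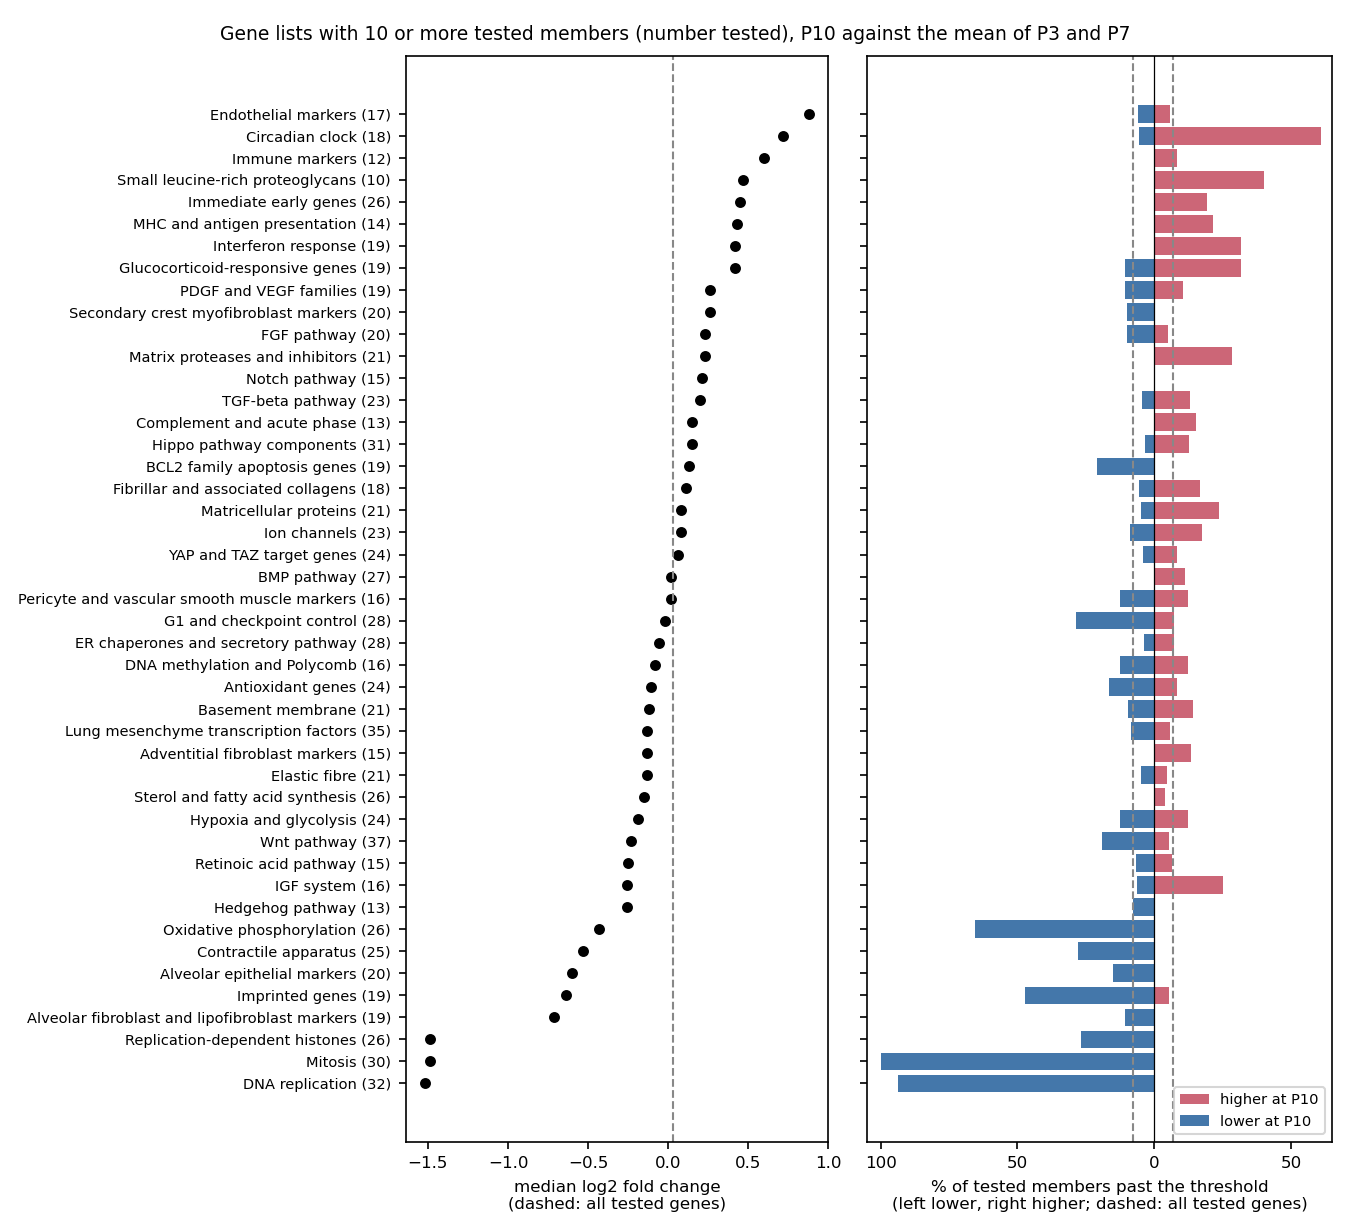
For 45 gene lists with at least 10 tested genes, the left panel gives the median log2 fold change and the right panel the percentage of members called lower (to the left) and higher (to the right), with dashed lines for all tested genes. Replication and mitosis genes stand lowest, with 30 of 32 and 30 of 30 called lower, and clock genes have the highest share called higher, 11 of 18.

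Several further genes were lower. Casp8, the initiator caspase of death receptors, read 6.29, 6.21 and 7.83 CPM against 9.75 to 12.5 CPM (log2 fold change -0.71 with SE 0.15, adjusted p = 0.0136), a call that ended without P10 replicate 2 (adjusted p = 0.0745). Among ion channels, Kcnma1, the large-conductance potassium channel of smooth muscle, read 9.91, 6.15 and 6.66 CPM against 14.5 to 21.1 CPM (log2 fold change -1.34 with SE 0.21, adjusted p = 0.00424). Piezo1, a channel opened by membrane stretch, had a log2 fold change of -0.65, and Cacna1c, the pore of the L-type calcium channel, was higher by 0.58. In that list 4 of 23 were higher and 2 lower. Aldh1a1, which makes retinoic acid, was lower (-1.06), and the receptor Rarb was higher (0.68), in a list of 15 with no other call. Among 35 transcription factors of lung mesenchyme 2 were higher and 3 lower, including Sox11, a factor of immature mesenchyme (-0.90). The shares over all tested genes were 7.01% higher and 7.60% lower. The Piezo1 call ended without P10 replicate 3 (adjusted p = 0.0549), the Sox11 call without replicate 2 (0.0544), and that of Aldh1a1 without either. The Rarb call ended in 12 of 19 alternatives, among them each of the 9 fits with 1 library left out.

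Genes were also grouped by their annotated RNA class. Genes annotated as unspliced or still to be verified experimentally (the class TEC) were higher in 76 of 364 tested and lower in 0, with a median log2 fold change of 0.73. Sense intronic transcripts were higher in 8 of 58 with a median of 0.77. Antisense genes were higher in 38 of 587 and lower in 7, with a median of 0.43. They were no more often higher than the 7.01% of all tested genes, and less often lower than the 7.60%. Protein-coding genes were higher in 869 and lower in 1172 of 12393, with a median near 0. Malat1, a nuclear non-coding RNA, stood at 6274, 6602 and 6004 CPM at P3, 6806, 9246 and 9379 at P7, and 12840, 19270 and 19180 at P10 (log2 fold change 1.23, SE 0.15, adjusted p = 0.00135). The TEC genes summed to 764 CPM in P10 replicate 1, 1131 and 1028 CPM in replicates 2 and 3, and 460 to 739 CPM at P3 and P7. The part of unspliced or nuclear RNA in the other differences was not tested.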

How the data were processed

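The deposited table holds estimated counts for 28004 genes in 12 libraries, scaled by the authors, as the table's name says, and given as whole numbers. The genome build was GRCm38, per the submitters' processing notes. Not given in the sources used here are the aligner, the quantifier and the annotation. Short genes carry large minimum values, as a scaling by length would give, so values do not equal reads, and counting limits at 0 are left out. The gene positions are from GENCODE mouse release 21, which gave 25784 genes 1 position, and promoters are from RefSeq (GRCm38.p6).

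Libraries were grouped by the stage in their labels. Low genes were removed with edgeR's filter by stage, library sizes were scaled by TMM, and 1 quasi-likelihood model with robust fitting was fitted over all 12 libraries (edgeR 4.0.16, limma 3.58.1, R 4.3.3). The contrast was P10 against the mean of the P3 and P7 stage means, with Benjamini-Hochberg adjustment over 16827 genes, and adjusted p-values are those of this test where no other is named. Counts were simulated for 16827 genes, with 67 changed by 1.5-fold, 67 by 2-fold and 66 by 4-fold at P10. The share of changed genes found was 7.46%, 35.8% and 74.2% in that order, and 1 of 79 calls was false. Far fewer genes were changed there than were called in the contrast, and the adjustment depends on that number. The shares therefore do not give the sensitivity of the contrast itself.

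The members, the 49 gene lists and the tests were chosen with earlier results of these data known. Of 1061 list symbols, 1052 were found. Genes were named by rule: the reporter genes, the 14 largest changes in each direction among separated calls of at least 10 CPM without predicted models, up to 4 members of each list by p, and 10 genes of the pathways studied. Another 17 genes were named after their values were seen: Col1a1, Col1a2, Malat1 and those named as such below. Members called in a list may be named whatever their rank, and some results are not reported here. Alternatives tried were DESeq2 1.42.0 and limma-voom, other scalings, filters and designs, a replicate block, each library left out and, chosen after seeing the data, offsets adjusted for transcript length.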

Additional observations from a re-analysis of the deposited data

Results flagged for a closer look

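Igf2 differed between the 2 stages that the contrast pools. It was the 1 gene called in P7 against P3 by edgeR's quasi-likelihood test, with a log2 fold change of -2.63 (adjusted p = 0.0233), from a mean of 36.1 CPM at P3 to 5.84 CPM at P7, and all 3 P7 libraries were lower than all 3 P3 libraries. Its difference of P10 from P3 and from P7 was therefore not of 1 size, and the mean of P3 and P7 is a level that neither stage had.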

How the results depend on the processing

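The numbers of genes called higher and lower at P10 (1179 and 1279) stayed within 1.5 times under the other scaling, both other filters, limma-voom, the fit on 9 libraries, P3 and P7 as 1 group, the replicate block and the length offsets. DESeq2 called 1803 and 2009. With 1 library left out they ranged from 341 to 1058 higher and from 418 to 1360 lower, lowest without P10 replicate 2 or 3. Of the calls without P10 replicate 2, 752 of 775 were also called with all libraries, and without replicate 3, 774 of 792. Of 166 genes named by rule and called, 95 passed without P10 replicate 2, 98 without replicate 3 and 140 without replicate 1. The cause was not tested, beyond the fewer samples.

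P10 against P7 called 613 genes, 986 in the fit on 9 libraries, 1844 by DESeq2, 307 with no filter, and 22 to 790 with 1 library left out. P10 against P3 called 1307 to 3053 with 1 library left out. P7 against P3 called 1 gene, 3 with a minimum of 1 CPM in 3 libraries or no filter, 79 in the fit on 9 libraries, 730 by DESeq2, 18 by limma-voom, and 0 to 3 with 1 library left out. With the replicate block the contrast called 882 and 1038 genes, P10 against P7 310 and P7 against P3 0. Deviations of same-numbered libraries from their stage means correlated between -0.195 and 0.136. These are the numbers of the sample titles, and the column names number some libraries otherwise. The correlations do not settle whether libraries of different stages share a litter or a day.

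Some genes that were not called changed sign when 1 library was left out. Their log2 fold changes ranged from -1.0 to 0.19 for Hmga1, -0.84 to 0.15 for Cldn10, -0.10 to 0.37 for Hba-a2, -0.41 to 0.49 for Alas2, -0.16 to 0.28 for Hbb-bt, -1.04 to 0.01 for Krt19, -0.05 to 0.33 for Wwtr1, -0.20 to 0.43 for Ctgf, -0.05 to 0.43 for Cyr61, -0.47 to 0.08 for Igf1 and -0.15 to 0.38 for Tgfb2. The calls of Tnxb, Col14a1 and Igfbp5 ended with P3 and P7 as 1 group (adjusted p = 0.0623, 0.0794 and 0.0845), where the difference between P3 and P7 enters the spread.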

Other observations

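Outside the gene lists, several genes with low adjusted p-values were higher at P10; all genes in this section were picked after their values were seen. Zbtb20, a zinc finger repressor, stood at 27.9, 24.0 and 23.4 CPM at P3, 38.0, 47.9 and 39.1 at P7, and 79.6, 114 and 95.2 at P10 (log2 fold change 1.57, SE 0.12, adjusted p = 0.000361 by edgeR's quasi-likelihood test). Cst3, which encodes the secreted protease inhibitor cystatin C, read 381, 424 and 442 CPM against 186 to 217 CPM (1.04, SE 0.09). Sema3c, a secreted guidance cue, was at 157, 152 and 153 CPM against 51.7 to 87.5 CPM (1.17), and Adamts10, which binds fibrillin microfibrils, was at 232, 262 and 269 CPM against 81.9 to 163 CPM (1.04). The receptor kinase Ntrk3 had a log2 fold change of 1.74.

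Since Hr and Klf9 are known targets of thyroid hormone, the receptors were looked at. Thrb stood at 1.16, 0.97 and 1.01 CPM at P3, 0.997, 1.63 and 1.16 at P7, and 2.67, 3.30 and 3.41 at P10 (log2 fold change 1.44, SE 0.24, adjusted p = 0.00513). Thra was far more abundant and not called, at 122 to 132 CPM at P10 against 123 to 146 CPM (-0.07, adjusted p = 0.660).

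On the lower side, other genes with low adjusted p-values stood outside the lists. Chaf1a and Chaf1b, of the histone chaperone CAF-1, had log2 fold changes of -1.49 and -2.16. Hmgb2, a chromatin protein of dividing cells, read 47.3, 27.8 and 30.9 CPM against 98.6 to 149 CPM (-1.72, SE 0.19). Mybl2, which activates mitotic genes, was at 1.66, 1.94 and 1.73 CPM against 8.10 to 11.7 CPM (-2.47, SE 0.23, adjusted p = 0.000675). The spliceosome proteins Snrpd2 and Snrpf had -0.78 and -1.01. S1pr3, a receptor for sphingosine 1-phosphate, read 4.81, 4.46 and 3.46 CPM at P10 after 20.4 to 31.5 at P3 and 6.31 to 8.17 at P7 (-1.67). The genes given here as higher or lower passed in each of the 19 alternatives, except S1pr3 with P3 and P7 as 1 group (adjusted p = 0.0506).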
